A study of Schizosaccharomyces pombe with 3 samples.

Results

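Fission yeast noncoding RNAs that lie in tandem with coding genes were examined in an RNA polymerase II (RNAPII) slow mutant. Of the 1541 rows of the deposited count table with an SPNCRNA identifier, 265 overlap no coding gene on the opposite strand and have no opposite-strand coding gene that starts head to head within 1000 bp of their 5′ end. The remaining rows were antisense to a coding gene or divergent from one. Of the 265 tandem RNAs, 128 had a mean count of 10 or more over the libraries and were analyzed. The lowest mean count among them was 10.0, the highest among those left out was 9.33, and 68 of the 137 left out had no count in any library. All 128 passed the expression filter of the test. By chromosome, 60 lie on I, 42 on II and 26 on III.

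Total RNA was sequenced in 1 library of the parental strain FBY2323 (WT) and in 1 library of each of the *rpb1-N494D* strains FBY2324 (slow #1) and FBY2325 (slow #2), which are independent clones. All 3 strains were of mating type h-, carried the alleles *his3-D1*, *ura4-D18*, *leu1-32* and *ade6-M216*, and lacked *fex1* and *fex2*, so the WT strain also carries these deletions. They were grown to mid-log phase at 30°C in minimal medium (EMM) with adenine, histidine, leucine and uracil. The substitution was placed in the endogenous *rpb1* gene, which encodes the largest subunit of RNAPII. Since WT has 1 library, the spread between the clones stands for that of both genotypes. The p-values measure only this spread, which for each gene is drawn largely from the trend over all genes.

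A tandem noncoding RNA is read in the same direction as the next coding gene on its own strand, though opposite-strand genes can lie between them. Where the same-strand gene is close, RNAPII that passes the end of the RNA can enter the promoter of the gene. For 46 of the RNAs the next coding gene on the strand lay more than 1000 bp away. Transcription of an upstream noncoding RNA is known in fission yeast to keep some downstream genes silent, as at *tgp1* and *byr2*, while upstream RNAs at *fbp1* accompany its activation by glucose starvation. Many such RNAs are removed in the nucleus by the exosome, to which the RNA-binding protein Mmi1 directs transcripts that carry repeats of the hexamer TNAAAC. Where an RNA ends depends on cleavage and polyadenylation, which occur while RNAPII is still transcribing.

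The sequences of the RNAs to which the results return are shown here, taken from RefSeq by its own gene coordinates in the ASM294v3 assembly and written as the transcribed strand, with each TNAAAC in capitals. SPNCRNA.242 and *srp7*, which encodes 7SL, the RNA of the particle that targets secreted proteins to the endoplasmic reticulum, gave most of the counts of the whole class. The first 300 of the 335 bases of SPNCRNA.242 are at chrI:4154360-4154659 on the forward strand, and RefSeq places the 255 bases of *srp7* at chrI:4268662-4268916, forward strand, within the longer interval of the deposited row.
SPNCRNA.242: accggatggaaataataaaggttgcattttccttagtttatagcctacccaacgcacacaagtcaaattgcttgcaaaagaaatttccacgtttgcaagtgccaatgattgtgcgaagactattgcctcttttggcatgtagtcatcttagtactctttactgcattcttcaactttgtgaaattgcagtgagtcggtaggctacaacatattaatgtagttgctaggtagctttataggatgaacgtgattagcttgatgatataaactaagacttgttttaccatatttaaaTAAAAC
srp7: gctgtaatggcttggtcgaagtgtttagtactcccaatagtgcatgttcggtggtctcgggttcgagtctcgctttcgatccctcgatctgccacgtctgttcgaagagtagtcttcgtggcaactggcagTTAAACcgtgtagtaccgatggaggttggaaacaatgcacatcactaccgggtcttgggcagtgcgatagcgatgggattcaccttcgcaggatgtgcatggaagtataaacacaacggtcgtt
SPNCRNA.950 (chrI:3938842-3939103, forward strand) had the largest increase of the class, and snR191 (chrI:2735048-2735175, reverse strand), a small nucleolar RNA within *nog2*, is the shortest RNA that rose. Neither holds the hexamer.
SPNCRNA.950: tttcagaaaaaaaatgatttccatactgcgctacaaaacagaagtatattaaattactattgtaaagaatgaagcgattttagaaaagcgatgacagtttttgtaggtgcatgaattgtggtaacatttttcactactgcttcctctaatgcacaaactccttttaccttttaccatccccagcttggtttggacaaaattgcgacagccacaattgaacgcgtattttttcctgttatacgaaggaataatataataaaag
snR191: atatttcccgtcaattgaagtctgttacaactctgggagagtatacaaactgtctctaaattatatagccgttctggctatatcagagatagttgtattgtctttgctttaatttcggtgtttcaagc
The stretches of 160 bases with the most hexamers are shown for *nam1* (chrII:1742709-1742868, reverse strand) and *sme2* (chrII:339347-339506, reverse strand), RNAs known to be bound by Mmi1. They hold 4 and 7 copies, respectively. For *sme2*, only the bases that its deposited row covers were searched.
nam1: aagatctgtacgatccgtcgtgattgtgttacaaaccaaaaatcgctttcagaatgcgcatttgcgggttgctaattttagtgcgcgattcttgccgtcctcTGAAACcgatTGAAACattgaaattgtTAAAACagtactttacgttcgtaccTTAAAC
sme2: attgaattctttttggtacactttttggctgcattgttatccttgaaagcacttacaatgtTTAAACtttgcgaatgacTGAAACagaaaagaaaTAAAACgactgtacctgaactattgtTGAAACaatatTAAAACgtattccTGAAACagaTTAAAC

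The tandem RNAs were mostly low in abundance. Their median mean count was 118, against 310 for the 895 antisense RNAs and 3261 for the 5029 coding genes with a mean count of 10 or more. Per length, their median level in WT was 3.44 CPM per kilobase (CPM being counts scaled to the library size), against 6.24 for antisense RNAs, 3.04 for the 194 divergent RNAs and 50.3 for coding genes. A few RNAs stood far above this. SPNCRNA.242 was at 3606 CPM per kilobase in WT, *srp7* at 793, snR48 at 625, snR191 at 501 and *omt3* at 136. SPNCRNA.242 and *srp7* together held 55.0% of all counts in the tandem RNAs in WT, 73.1% in slow #1 and 77.7% in slow #2. The median length was 905 bases, from 75 to 3449, and 1 RNA has more than 1 exon. RefSeq describes 38 of the 128 as a possible alternative untranslated region of a neighbouring mRNA, 6 as centromeric and 5 as small structural RNAs or their precursors.

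The first question was whether the level of these RNAs differed between the slow mutant and WT. Past 1.5-fold and at an FDR under 0.01, 1 of the 128 RNAs, *srp7*, was called higher and 0 were called lower by edgeR's quasi-likelihood test. Over all 6418 genes tested the same rule called 0.312% higher and 0.39% lower. Before adjustment, 26 of the RNAs were higher with a p under 0.05 and 19 were lower. With an FDR under 0.05 in place of 0.01, 13 RNAs (10.2%) rose and 9 (7.03%) fell, against 6.79% and 5.59% of all genes tested. DESeq2, at an FDR under 0.01, called 11 RNAs higher and 1 lower, against 5% and 3.65% of all genes. With RLE size factors in edgeR 0 RNAs were called at an FDR under 0.01, and with libraries scaled to *nda2*, *act1* and *fba1*, 4 rose and 3 fell at an FDR under 0.05. The RNAs named below as having risen or fallen are those at an FDR under 0.05 in edgeR.

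The changes were large in size whether or not they passed the test. The median log2 fold change of the tandem RNAs was 0.21, against 0.16 for antisense RNAs, 0.21 for divergent RNAs, −0.03 for coding genes and 0.01 for all genes tested. Scaled to *nda2*, *act1* and *fba1*, it was 0.04, against −0.17 for all genes tested. With the usual scaling it was 0.22 in slow #1 and 0.08 in slow #2, each against the same WT library. The median size of the change, with the sign removed, was 0.64, against 0.34 for antisense RNAs, 0.49 for divergent RNAs and 0.26 for coding genes. Without a test, 40 RNAs were past 1.5-fold upward and 30 downward, against 12.9% and 7.73% of all genes. Both clones were above WT for 66 RNAs and below it for 45, while for 17 the clones lay on either side of WT; over all genes tested, both clones were above WT for 42.7% and below it for 42.6%.

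Low counts accompany wide changes, so the RNAs were also viewed by count. The median difference between the clones was 0.24 on the log2 scale for the tandem RNAs, against 0.26 for divergent RNAs, 0.18 for antisense RNAs and 0.12 for coding genes. Among RNAs with a mean count of 100 to 1000, 19 of 53 tandem RNAs were past 1.5-fold upward and 6 downward, as were 139 and 42 of 708 other noncoding RNAs. At a mean count of 1000 or more, 6 of 14 tandem RNAs were past it upward and 2 downward, as were 20 and 11 of 122 others. At lower counts more of the tandem RNAs were past it downward than upward. At a mean count of 30 to 100, 7 of 32 tandem RNAs were past it upward and 11 downward, as were 45 and 18 of 179 others. At 10 to 30, 8 of 29 were past it upward and 11 downward, as were 22 and 16 of 80 others. At an FDR under 0.05, 0 rose and 6 fell of the 61 tandem RNAs with a mean count under 100. Of the other noncoding RNAs, 2 rose and 6 fell of the 179 at 30 to 100, and 0 rose and 1 fell of the 80 at 10 to 30. Of all other genes tested, noncoding or not, 19 rose and 9 fell of 274 at 30 to 100. At 10 to 30, 3 rose and 1 fell of 149 such genes. These shares were not tested against each other. A mean over the libraries can reach the minimum of 10 through 1 library in which an RNA is high. SPNCRNA.882 and SPNCRNA.1258 are both among the 6 that fell. In WT, slow #1 and slow #2 they had 23, 4 and 3 counts and 36, 10 and 9 counts, respectively. Their place in the set thus rests mainly on WT, and their falls are no independent support for a downward shift at low counts. Other RNAs past 1.5-fold at 10 to 30 can have entered likewise, through WT if lower or through the clones if higher.

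**Figure D1:**
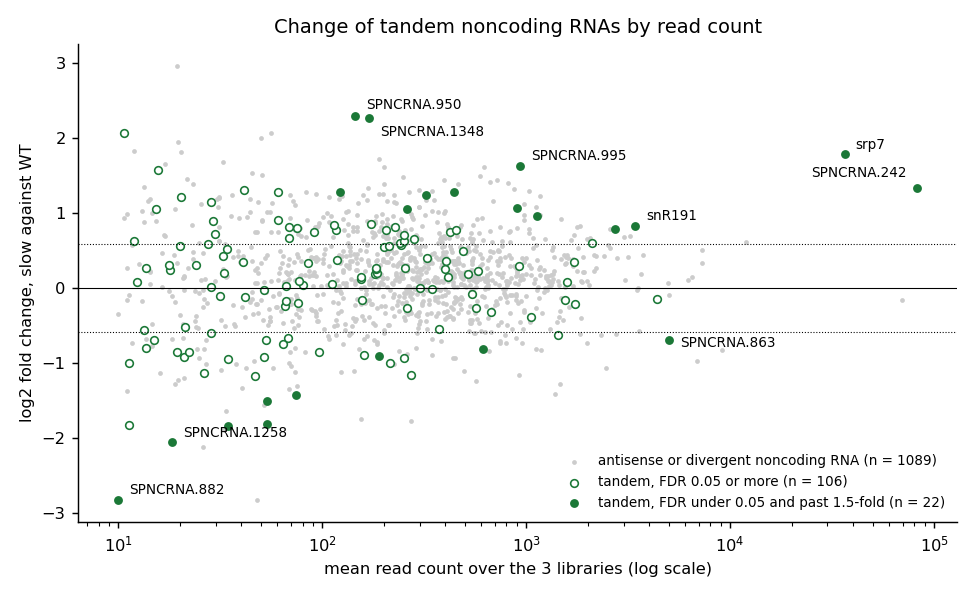
Log2 fold change in slow against WT by mean read count (log scale) for the 128 tandem RNAs (green) and 1089 other noncoding RNAs (gray). Filled green points are the 22 RNAs at an FDR under 0.05 and past 1.5-fold (dotted lines). All 13 that rose have a mean count above 100.

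**Figure D2:**
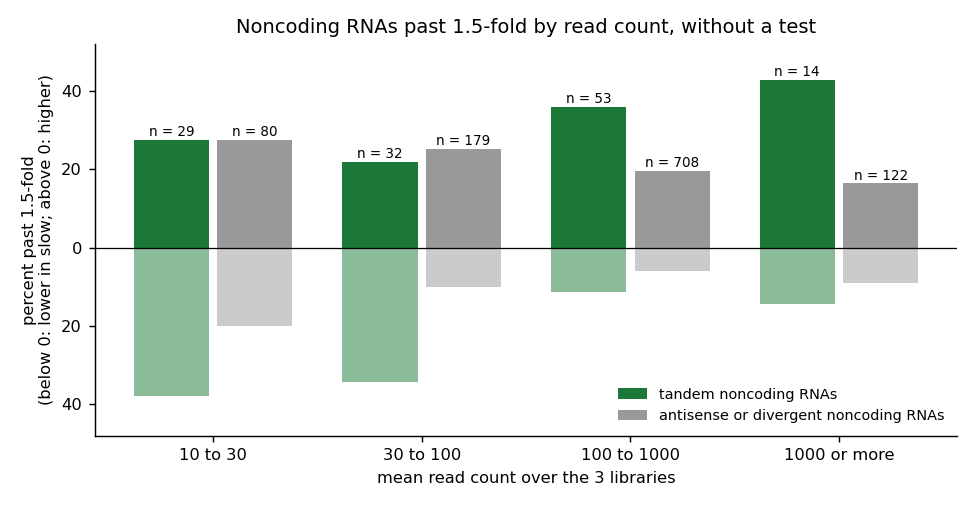
Percent of tandem RNAs (green) and of antisense or divergent RNAs (gray) past 1.5-fold, by mean read count, with higher RNAs above 0 and lower RNAs below it. At counts of 100 or more the green bars for higher RNAs stand above the gray bars, with 53 and 14 tandem RNAs in those bins, and at 30 to 100 below them. The green bars for lower RNAs are the longer ones in every bin.

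The small structural RNAs held the only call. *srp7* was at 396 CPM in WT, 1292 in slow #1 and 1435 in slow #2. Both clones were thus far above WT and near each other. Its log2 fold change was 1.78 ± 0.19 (SE), with an adjusted p of 0.00957 in edgeR, just under the threshold, and 1.33e-20 in DESeq2. snR191 was at 64.2, 123 and 104 CPM in WT, slow #1 and slow #2, and rose (0.83 ± 0.15, FDR 0.0224). It lies on the same strand within the GTPase gene *nog2*, whose counts did not pass the test (−0.10, FDR 0.672). snR48, which lies within the ribosomal protein gene *rps3*, was at 46.9 CPM in WT, 47.1 in slow #1 and 95.7 in slow #2. Slow #1 was level with WT and only slow #2 was well above it. The fitted value of 0.60 ± 0.38 did not pass (FDR 0.303). snoR61 was at −0.32 (FDR 0.214) and the precursor row SPNCRNA.723 at −0.09 (FDR 0.816).

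Other short RNAs of the table are set beside these. The 42 small nucleolar RNA genes that are not among the tandem RNAs had a median log2 fold change of 0.59, with 22 past 1.5-fold upward and 8 downward, and with 6 higher and 1 lower at an FDR under 0.05. The 35 antisense or divergent RNAs of 350 bases or fewer had a median of 0.19, with 14 past 1.5-fold upward and 8 downward. The 10 tandem RNAs of 350 bases or fewer had a median of 0.62, and 75 coding genes of that length had a median of 0.36. The 50 transfer RNA genes tested, of 71 to 99 bases, had a median of 1.83, with 45 past 1.5-fold upward and 3 downward. At an FDR under 0.05, 12 of them were higher and 0 lower, at a median mean count of 21.3. The log2 fold change was above 0 for 71.4% of these small nucleolar RNA genes and 92% of the transfer RNA genes. Of the genes of 350 bases or fewer, it was above 0 for 70% of the tandem RNAs. For the antisense or divergent RNAs of that length the share was 62.9%, and for the coding genes 65.3%. Over all genes tested it was 50.9%. The part of RNA length in the values of *srp7*, snR191 and SPNCRNA.242 was not tested.

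SPNCRNA.242, the most abundant tandem RNA, has 335 bases and no name. It was at 1208 CPM in WT, 2449 in slow #1 and 3620 in slow #2. Both clones were above WT, and they differed from each other by 1.48-fold. It rose by 1.33 ± 0.29 on the log2 scale (FDR 0.0335). The gene downstream at 770 bp, *dap1*, which encodes a regulator of cytochrome P450 enzymes, was at 0.10 (FDR 0.72), and *rpo41*, the mitochondrial RNA polymerase gene 2850 bp upstream, at −0.28 (FDR 0.161).

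Among the less abundant RNAs, SPNCRNA.950 was at 1.19 CPM in WT, 3.77 in slow #1 and 8.0 in slow #2, from 38, 156 and 240 counts. Its log2 fold change of 2.29 ± 0.55 (FDR 0.0417) was the largest of the class, and its clones differed more than most. Its neighbours, the sugar transporter gene *sut1* upstream and *hem1*, for 5-aminolevulinate synthase, downstream, were at 0.38 (FDR 0.106) and −0.41 (FDR 0.0857). SPNCRNA.1348 was at 1.34, 6.71 and 6.23 CPM in WT, slow #1 and slow #2. Its clones lay close together, and it rose by 2.27 ± 0.29 (FDR 0.0117), while the gene 106 bp downstream, SPBC1271.05c, did not pass the test (−0.12 ± 0.13, FDR 0.548). Of its upstream neighbour *mug96*, too few counts were present for a test. SPNCRNA.976 was at 4.31, 9.30 and 8.57 CPM and rose by 1.05 ± 0.23 (FDR 0.0338), and SPNCRNA.388, at 52.8, 87.8 and 94.0 CPM, by 0.78 ± 0.12 (FDR 0.0177).

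RNAs annotated as possible alternative untranslated regions made up 6 of the 13 that rose and 2 of the 9 that fell. These were 15.8% and 5.26% of the 38 RNAs so annotated, against 10.2% and 7.03% of all 128. Over all genes tested the shares were 6.79% and 5.59%. SPNCRNA.995 was at 11.3 CPM in WT, 28.6 in slow #1 and 41.6 in slow #2 and rose by 1.63 ± 0.26 (FDR 0.0181). It ends 4 bp before SPAC27D7.11c, a But2 family gene, which was at 0.50 ± 0.15 (FDR 0.0697). SPNCRNA.1527 was at 6.63, 13.2 and 19.0 CPM and rose by 1.27 ± 0.28 (FDR 0.033). Its downstream gene *gas2*, for a glucanosyltransferase of the cell wall, was at −0.13 (FDR 0.525). SPNCRNA.1385 was at 1.81, 3.99 and 4.83 CPM and rose by 1.28 ± 0.31 (FDR 0.0436), while *anc1*, the mitochondrial ADP/ATP carrier gene with which it shares 64 bases, was at 0.11 (FDR 0.62). In these 3 loci the RNA rose and the gene after it did not pass the test. SPNCRNA.626 was at 15.1, 28.5 and 34.7 CPM and rose by 1.06 ± 0.19 (FDR 0.0224). It shares 66 bases with SPAC806.11, a gene under 0.5 CPM in every library.

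Of the RNAs that fell, 3 had a mean count of 100 or more. SPNCRNA.863 was at 197 CPM in WT, 124 in slow #1 and 120 in slow #2 and fell by 0.69 on the log2 scale (SE 0.11, FDR 0.019). SPNCRNA.861, which begins after it on the same strand, was at 8.13, 4.61 and 4.0 CPM and fell by 0.91 (SE 0.24, FDR 0.0492). The next gene on that strand, *cbm1*, for a protein with a cellulose-binding domain, was at 39.1 CPM in WT, 17.4 in slow #1 and 18.3 in slow #2 and fell by 1.13 (SE 0.15, FDR 0.0121). All members of this row of genes were thus lower in both clones. SPNCRNA.1097 was at 25.3, 15 and 13.7 CPM and fell by 0.82 (SE 0.17, FDR 0.028).

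The other RNAs that fell had few counts. SPNCRNA.1055 was at 3.06, 0.87 and 0.867 CPM (98, 36 and 26 counts) and fell by 1.81 (SE 0.34, FDR 0.0237). It lies between the glycolytic gene *gpm1* (0.60, FDR 0.112) and the reductase gene SPAC26F1.07 (0.49, FDR 0.0579), of which the latter shares 63 bases with it. SPNCRNA.604 was at 64, 26 and 14 counts (−1.84 ± 0.41, FDR 0.0356) upstream of the siderophore transporter gene *str3*, itself at −1.38 (FDR 0.0771). SPNCRNA.218 and SPNCRNA.1444, at 91, 33 and 37 counts and at 122, 67 and 35 counts, fell by 1.51 and 1.43. SPNCRNA.1258 had 36, 10 and 9 counts. SPNCRNA.882 had 23, 4 and 3, and of its 739 bases only 57 are free of other genes on the same strand, so its counts come from that short stretch. None of these 6 passed in DESeq2 at an FDR under 0.01.

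**Figure D3:**
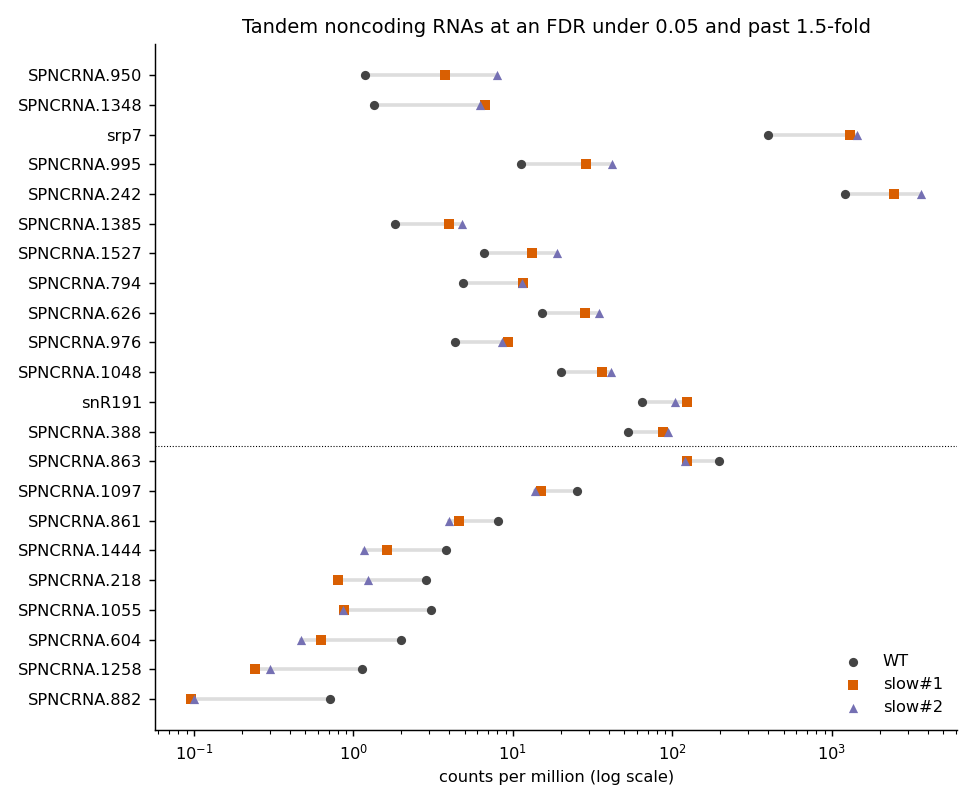
CPM (log scale) in WT (circles), slow #1 (squares) and slow #2 (triangles) of the 22 tandem RNAs at an FDR under 0.05 and past 1.5-fold, ordered by fold change, with those that rose above the dotted line. WT lies outside the range of the clones for each RNA, and the clones lie farthest apart for SPNCRNA.950 among those that rose.

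None of the named RNAs with a known role in meiosis or gene control passed the test at an FDR under 0.05. *nam1*, an RNA that represses the kinase gene *byr2* needed for entry into meiosis, was at 47.8 CPM in WT, 48.0 in slow #1 and 37.0 in slow #2 (−0.17 ± 0.18, FDR 0.54). *byr2*, which starts 50 bp after it, was at 28.7, 28.3 and 27.7 CPM (−0.04 ± 0.15, FDR 0.873). The row of *sme2*, whose RNA sequesters Mmi1 in meiosis, covers the last 667 of the 1562 bases of the RefSeq gene and was at 8.56, 6.79 and 7.40 CPM (−0.27 ± 0.21, FDR 0.403). *omt3* was at −0.14 (FDR 0.401) and *meu19* at 0.08 (FDR 0.71). SPNCRNA.1343, which RefSeq describes as divergent from the RNA upstream of *tgp1* and as non-functional, was at 13.7, 10.1 and 8.60 CPM (−0.54 ± 0.20, FDR 0.114). The centromeric RNA *nam5* had 39, 29 and 11 counts (−1.14 ± 0.52, FDR 0.171), and the 6 centromeric RNAs ranged from −1.14 to 1.15 with none past the test. For none of these does a missed threshold show equal levels.

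The hexamer bound by Mmi1 was counted on the transcribed strand of the 120 tandem RNAs whose coordinates are the same in ASM294v3. At least 1 copy of TNAAAC was present in 93 of them (77.5%), in 87.2% of antisense RNAs and in 79% of divergent RNAs, or 2.35, 1.94 and 2.12 copies per kilobase over each class. SPNCRNA.680 held the most, 10 copies, followed by *nam1* and *nam5* with 9 each. The 27 RNAs without a copy had a median log2 fold change of 0.55, the 49 with 1 to 2 copies 0.20, and the 44 with 3 or more 0.13. The median lengths of these sets were 574, 891 and 1262 bases, so copy number and length move together. The polyadenylation hexamer AATAAA was found in the last 100 bases of 25.8% of the tandem RNAs, 26.1% of antisense RNAs and 21.5% of divergent RNAs. These matches are descriptions of sequence only.

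The *mmi1* gene itself was at 177 CPM in WT, 113 in slow #1 and 116 in slow #2 and fell by 0.63 on the log2 scale (SE 0.11, FDR 0.0224). Of 25 tested genes of the nuclear exosome, its adaptor complex MTREC and Mmi1, 0 were called at an FDR under 0.01, and 0 were higher and 3 lower at an FDR under 0.05, where 5.59% of all genes tested were lower. The others that fell were *dis3* (−0.66 ± 0.12, FDR 0.0246) and *rrp46* (−1.08 ± 0.19, FDR 0.0221), a catalytic and a core subunit of the exosome. The median of the list was −0.18. Of 23 genes of 3′ end processing and termination and 16 of chromatin at transcribed genes, 0 passed either threshold, with medians of 0.03 and −0.04. Of 3 genes of mating, *mam3* rose (1.27 ± 0.21, FDR 0.02). *map2* (0.33 ± 0.14, FDR 0.143) and *map3* (−0.37 ± 0.17, FDR 0.172) did not pass and were at 17.5 to 44.2 CPM in these h- strains.

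The second question was whether the RNAs changed with the coding genes beside them. Downstream, the next same-strand coding gene overlapped 36 of the 128 RNAs, lay within 1000 bp of 46 and farther away for 46. Upstream, a coding gene overlapped 12, lay within 1000 bp of 52 and farther away for 64. Of the 36 downstream overlaps, 27 spanned 54 to 68 bases. Of the 35 in which both genes are in the ASM294v3 annotation, 18 overlap there too, so many overlaps depend on where an annotation puts the start of the coding gene. A fragment that touches both genes of an overlap was counted for neither. The 53 RNAs that overlap some same-strand gene had a median log2 fold change of 0.23, and the 75 that do not, 0.20.

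Among the 80 different downstream genes that overlap or lie within 1000 bp, 1 was called higher at an FDR under 0.01 and 0 lower, and at an FDR under 0.05, 5 were higher and 12 lower. Among the 57 upstream genes, 0 were called, and 4 were higher and 6 lower at an FDR under 0.05. The same rule called 6.79% of all genes tested higher and 5.59% lower, and 123 and 124 of the 2291 downstream partners in tandem pairs of coding genes as close. The median log2 fold change of the downstream genes was −0.12 and that of the upstream genes 0.08, against −0.03 for all downstream partners in tandem pairs of coding genes that overlap or lie this close.

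Across pairs, the relation of the changes differed with the distance and with the counts. Spearman's correlation coefficient between an RNA and its overlapping or close downstream gene was −0.04 (Pearson's r −0.04, 81 pairs), and for upstream genes −0.10 (r −0.08, 57 pairs). For 2291 tandem pairs of coding genes as close, the Spearman coefficient was 0.02, and for 464 pairs of other noncoding RNAs with a downstream gene 0.01. Within the 35 downstream overlaps the Spearman coefficient was −0.33 (r −0.30), and in the 46 close downstream pairs 0.17 (r 0.22). In the 345 overlapping pairs of coding genes it was −0.08, and in the 1946 close ones 0.04. In the 26 downstream overlaps of an RNA with a mean count of 50 or more in both genes, the Spearman coefficient was −0.33 and r −0.32. In the 17 with a mean count of 100 or more in both, it was −0.03 and r 0.07. In the 40 overlapping or close downstream pairs with a mean count of 100 or more in both, it was 0.13 and r 0.17. All pairs share the same 3 libraries and many of the RNAs have few counts, and these values are descriptions.

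**Figure D4:**
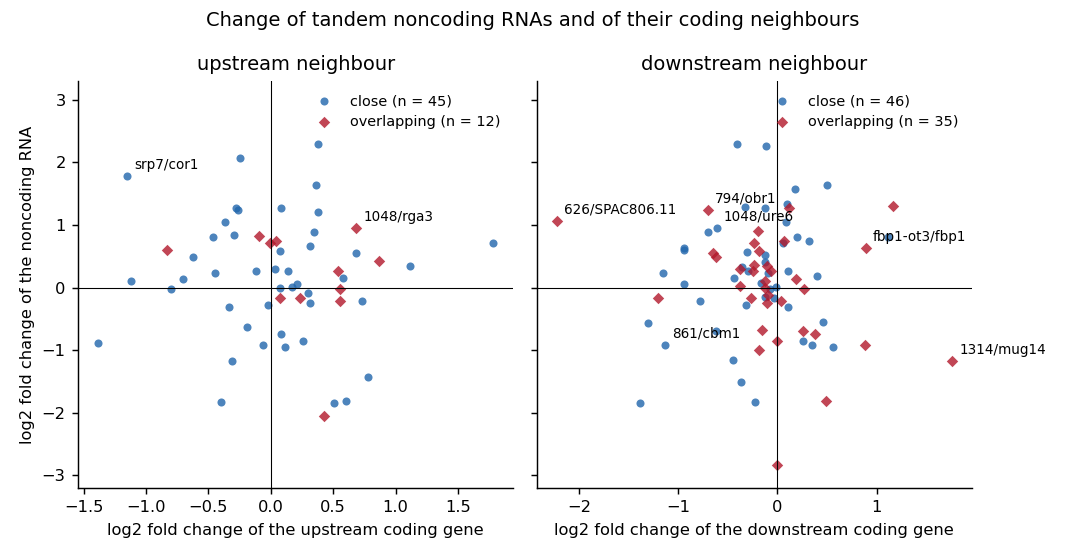
Log2 fold change of each tandem RNA against that of its upstream (left) or downstream (right) coding gene, for genes within 1000 bp (blue circles) or overlapping (red diamonds). The points spread around 0 in all quadrants, and the labeled pairs are described in the text.

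In 51 of the 81 downstream pairs neither gene passed an FDR of 0.05 with a 1.5-fold change, in 12 the RNA alone did, in 15 the coding gene alone, and in 3 both. In 1 of these 3 both fell, SPNCRNA.861 with *cbm1*. In the other 2 the RNA rose and the coding gene fell. In the 57 upstream pairs both rose in 1 and the RNA rose while the gene fell in 1. In 0 of the pairs did an RNA fall and its coding gene rise with both past the test. The RNA passed at SPNCRNA.1444, which fell, and the gene 131 bp upstream of it, *rpl26*, for a protein of the large ribosomal subunit, narrowly missed. *rpl26* was at 1618 CPM in WT, 2645 in slow #1 and 2896 in slow #2 (0.78 ± 0.21, FDR 0.0519 in edgeR and 0.000295 in DESeq2).

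The coding gene passed in the pair of SPNCRNA.1314 (II, 127937 to 128726, forward strand, ASM294v2) and *mug14*, which encodes an adducin. They share 67 bases. *mug14* was at 19.2 CPM in WT, 65.3 in slow #1 and 64.4 in slow #2, and was called higher (1.76 ± 0.14, FDR 0.00496), the only gene called at an FDR under 0.01 among those that overlap or lie close. SPNCRNA.1314 was at 2.19, 1.16 and 0.733 CPM, from 70, 48 and 22 counts. It was lower in both clones, but at −1.18 ± 0.41 it did not pass (FDR 0.0939). The opposite movement of the pair thus rests on the coding gene.

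SPNCRNA.794 (I, 2094999 to 2095865, reverse strand) shares 68 bases with the start of *obr1*, for an NAD(P)H dehydrogenase. The RNA was at 4.84 CPM in WT, 11.5 in slow #1 and 11.3 in slow #2 and rose by 1.24 ± 0.21 (FDR 0.0215). *obr1* was at 125, 70.4 and 83.2 CPM and fell by 0.70 on the log2 scale (SE 0.14, FDR 0.0268). In the ASM294v3 annotation these genes do not overlap.

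SPNCRNA.1048 lies after *rga3*, with which it shares 26 bases, and 590 bp before the urease accessory gene *ure6*. The RNA was at 20.1, 36.2 and 41.5 CPM and rose by 0.95 ± 0.16 (FDR 0.0211). *rga3* was at 392, 584 and 675 CPM and rose by 0.68 ± 0.16 (FDR 0.0404). *ure6* was at 62.1, 42.8 and 38.3 CPM and fell by 0.61 (SE 0.13, FDR 0.0327). The RNA thus moved with the gene before it and against the gene after it.

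The third pair of this kind is *srp7* and the cornichon family gene *cor1*, which ends 486 bp upstream. *cor1* was at 146 CPM in WT, 74.1 in slow #1 and 57.6 in slow #2 and fell by 1.15 (SE 0.16, FDR 0.0138). Unlike most of the class, 7SL RNA is known to be made by RNA polymerase III.

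At *fbp1*, the fructose-1,6-bisphosphatase gene of gluconeogenesis, the upstream RNA *fbp1-ot3* was at 5.41, 6.74 and 10.0 CPM (0.63 ± 0.30, FDR 0.196). *fbp1*, which shares 66 bases with it, was at 6.63, 13.4 and 11.1 CPM and rose by 0.89 ± 0.22 (FDR 0.0471). Both were above WT in both clones, though only the coding gene passed. The other overlapping downstream genes at an FDR under 0.05 were SPBC19C7.04c (1.16) and *tfb5* (0.88), which rose, and *adg1* (−1.20) and the amino acid permease gene *per1* (−0.62), which fell. Their RNAs, SPNCRNA.1554, SPNCRNA.1551, SPNCRNA.1063 and SPNCRNA.935, were at 1.31, −0.92, −0.16 and 0.49 and did not pass.

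**Figure D5:**
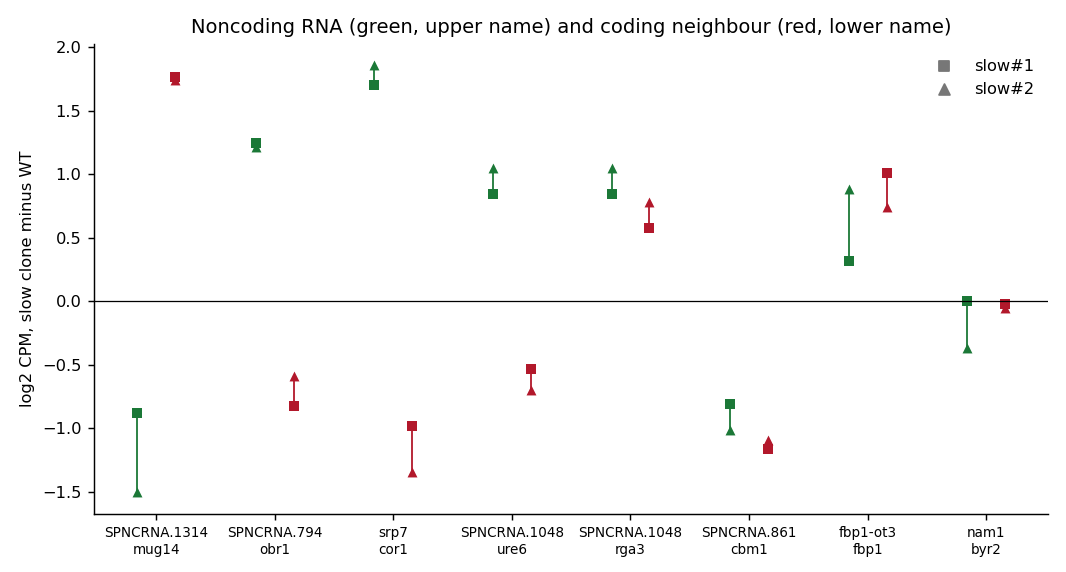
Difference in log2 CPM between each slow clone and WT for 8 pairs of a tandem RNA (green) and a coding neighbour (red), with slow #1 as squares and slow #2 as triangles. SPNCRNA.1314 and *mug14*, SPNCRNA.794 and *obr1*, *srp7* and *cor1*, and SPNCRNA.1048 and *ure6* lie on opposite sides of 0, and the other pairs do not or stay near it.

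Neighbouring RNAs between the same coding genes were not always alike. Upstream of *hsr1*, for a DNA-binding transcription factor, 4 RNAs on its strand (SPNCRNA.778, SPNCRNA.779, SPNCRNA.781 and SPNCRNA.784) were at 0.55 to 0.84, both clones above WT in each, with none past the test, and *hsr1* was at 0.19 (FDR 0.316). On the other strand of this interval SPNCRNA.780 and SPNCRNA.782 were at 0.20 and 0.09. The latter are antisense to SPNCRNA.779 and SPNCRNA.781, which the choice of RNAs allowed since it looked only at coding genes. SPNCRNA.399 and SPNCRNA.400, both before SPBC365.16 (−0.95, FDR 0.0109), were at 0.06 and 0.59.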

How the data were processed

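The authors deposited raw counts of fragments per gene for 7049 genes, made with Trimmomatic 0.36, STAR 2.5.1 against ASM294v2 and featureCounts (version not given in the sources used here) by strand, so that a fragment on 2 same-strand genes is not counted. They used DESeq2 1.24. The libraries held 31803128 (WT), 40746838 (slow #1) and 30674459 (slow #2) counts. Gene lengths are those of the deposited table.

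Counts were tested with edgeR 4.0.16 (R 4.3.3; genes kept by filterByExpr at min.count 10 and min.total.count 15, TMM, quasi-likelihood, Benjamini-Hochberg over 6418 genes, 1 residual degree of freedom). The median prior degrees of freedom were 5.25. Each SE was derived from the fold change (log2) and its F statistic, as |log2 fold change|/√F. DESeq2 1.42.0 was an alternative. Each clone's own difference from WT was taken in log2 CPM (prior count 2). Names were matched for 124 of the 128 RNAs through the RefSeq table of ASM294v3, in which 120 have the same start and end.

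The RNAs and lists were chosen with earlier results of these data known. Named are RNAs called at an FDR under 0.01; the 10 with the largest change each way at an FDR under 0.05, 1.5-fold in both clones and a mean count of 100 or more; the 5 most abundant per length; those with a symbol; those with a close coding gene called at an FDR under 0.01 or differing in the opposite direction; and the neighbours of these. SPNCRNA.388, the RNAs that fell with fewer counts, *rpl26*, the RNAs that share an interval, and the other overlapping pairs were named after their values were seen.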

Additional observations from a re-analysis of the deposited data

How the results depend on the processing

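The count of RNAs called at an FDR under 0.01 depended on the tool. For RNAs called higher it was 1 as reported, 11 with DESeq2, 0 with RLE size factors, 4 without the expression filter, 13 at an FDR under 0.05 and 0 with a head-to-head distance of 2000 bp, which leaves *srp7* out. For RNAs called lower it was 0 as reported, 1 with DESeq2 and 9 at an FDR under 0.05. With RLE size factors edgeR called 0 genes of the whole table, and 2205 had a p under 0.05 before adjustment. At an FDR under 0.05, and chosen after seeing the data, 4 rose and 3 fell when libraries were scaled to *nda2*, *act1* and *fba1*, 4 fell with DESeq2 and 4 with RLE, and 8 rose among the RNAs free of same-strand overlap. Scaling to these genes lowered all values by 0.18 at the median. It moved the median of the RNAs from 0.21 to 0.044 and that of *meu19* to −0.10. The median without 1 clone was 0.080 to 0.22, and *nam1* was at −0.37 to 0.0056. Leaving out 1 clone leaves 1 library a group, with no test.

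Of the downstream genes, 4 were called higher and 9 lower with DESeq2, 0 higher with RLE, 3 higher and 6 lower without the filter, 0 higher and 1 lower with the scaling to *nda2*, *act1* and *fba1*, and 5 and 12 at an FDR under 0.05. Of the upstream genes, 5 were called higher and 6 lower with DESeq2, 3 lower without the filter, 1 lower with that scaling, and 4 and 6 at an FDR under 0.05. The downstream Spearman coefficient of −0.04 was −0.087 with close as 500 bp, −0.062 as 2000 bp and −0.0022 at a minimum mean count of 50, and the upstream coefficient of −0.10 was −0.0012 with close as 2000 bp and −0.15 at that count. The cause of these differences was not tested. No paired analysis was possible because WT has 1 library. At a median of 118 counts an RNA, the median SE of the log2 fold change was 0.31, against 0.13 for coding genes.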
